A study of Mus musculus with 8 samples.

Results

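The genes described here encode the initiation factors eIF1 to eIF6 and the cytosolic elongation factors eEF1 and eEF2 of the mouse, with the kinases, binding proteins and methyltransferases that carry the same names. The rule took symbols and no measured value: every protein-coding gene whose symbol begins with *Eif1* to *Eif6* or *Eef1* or *Eef2*, leaving out pseudogenes and the Y-linked copy of *Eif2s3x*. This gave 67 of the 54532 gene identifiers counted. RNA came from 8 primary cultures of wild-type mouse brain pericytes, the mural cells that wrap capillaries. After 48 h, 4 cultures had received TGF-β1 at 5 μg/mL and 4 had received vehicle, and each culture gave 1 stranded total RNA library. The cells had been passaged in endothelial and then pericyte medium, so that they stand for cultured pericytes and not for freshly isolated ones. The labels number the vehicle cultures 1 to 4 and the TGF-β1 cultures 5 to 8, and values are listed below in that order. The methods name 4 independent isolates given both treatments, whereas the series text speaks of 8 cultures, and no label ties a vehicle culture to a TGF-β1 culture, so the groups were compared as unpaired, and if they were paired, differences between isolates are counted within the standard errors and p-values below.

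Translation begins when eIF2, bound to GTP and the initiator tRNA, joins the small ribosomal subunit with eIF1, eIF1A, eIF3 and eIF5, and when eIF4E, eIF4G and eIF4A bring in the capped mRNA. eIF2B recharges eIF2 with GTP, and kinases that phosphorylate the α subunit of eIF2 block this step under stress. During elongation eEF1A delivers aminoacyl-tRNA, the eEF1B subunits recharge eEF1A, and eEF2 moves the ribosome along the mRNA. The mRNAs of many of these proteins belong to the class whose own translation depends on growth signals through mTORC1, so that transcript levels, which are what was measured here, need not follow protein levels.

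The libraries held 45255235 to 47651397 counts each. Of the 10 pericyte markers examined, *Pdgfrb* averaged 202 counts per 1000000 (CPM) in the vehicle and 291 CPM in the TGF-β1 cultures, *Cspg4* 82.9 and 169 CPM, and *Rgs5* 8.62 and 2.13 CPM, whereas *Des* stayed under 1 CPM and *Kcnj8*, *Abcc9* and *Vtn* had at most 9 counts in any culture. *Mcam* was higher (5.25 and 10.1 CPM), *Anpep* lower (40.5 and 30.1 CPM) and *Notch3* not called (88.45 and 85.9 CPM). The summed level of 5 fibroblast markers ranged from 3717 to 3877 CPM with vehicle and from 5327 to 5569 CPM with TGF-β1, through *Col1a1* and *Col1a2*, while *Dcn* was lower (52.1 and 46.7 CPM), *Pdgfra* was not called (62.5 and 63.0 CPM) and *Lum* had at most 6 counts. Of 7 endothelial markers, *Cdh5* was at 375 and 367 CPM while *Pecam1* was near 1 CPM and *Cldn5* and *Erg* had at most 10 counts, and the list summed to 390.5 to 405 CPM with vehicle and 376 to 402 CPM with TGF-β1. *Vwf* was higher (1.575 and 3.81 CPM), *Tek* lower (2.71 and 1.99 CPM) and *Kdr* not called (17.9 and 18.6 CPM). The 10 pericyte markers summed to 418.5 to 439 CPM with vehicle and 578 to 601 CPM with TGF-β1, and the 5 smooth muscle markers, nearly all *Acta2*, to 718 to 793 and 719 to 759 CPM. Of these 5, *Lmod1* was lower (26.0 and 16.5 CPM), *Cnn1* higher (1.90 and 2.44 CPM) and *Acta2*, *Myh11* and *Tagln* not called. Astrocyte markers summed to 234 to 245 and 206 to 221 CPM, with *Gja1* not called, *Slc1a2* lower (38.5 and 16.3 CPM), *Aldh1l1* higher (5.16 and 8.785 CPM) and *Aqp4* at or near 0. Microglia markers summed to 104 to 109 and 102 to 105 CPM with all but *Tmem119* under 4 CPM. The neuron list summed to 4.23 to 5.42 CPM with vehicle and 8.82 to 11.7 CPM with TGF-β1, through *Tubb3* (2.11 and 7.91 CPM), and the oligodendrocyte list to 4.12 to 5.48 and 5.34 to 6.04 CPM. The part of these shifts in the results below was not tested, and in bulk RNA fewer cells of a type cannot be told apart from less RNA per cell.

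Most of these transcripts were somewhat more abundant after TGF-β1, by small amounts. Of the 67 genes, 65 had enough counts to be tested, and 39 of them were higher, 5 were lower and 21 were not called at an edgeR adjusted p under 0.05. Over all 22544 genes tested, 20.9% were called higher and 20.3% lower. Among the 10195 genes with a mean of at least 10 CPM, where small differences are easier to see, 60.9% were called, 33.8% higher and 27.1% lower, against 38 higher and 5 lower of the 60 members at that level. The median log2 fold change was 0.092 for the members and −0.011 for all genes tested. It was 0.011 for protein-coding genes, and at a mean of at least 10 CPM it was 0.020 for all genes and 0.092 for the members. The changes were small in size: 1 member, *Eef1akmt3*, was called with an absolute log2 fold change of at least 0.5, as were 14.0% of all genes tested. In 38 members, all of them called, the 4 TGF-β1 cultures did not overlap the 4 vehicle cultures, as in 37.9% of all genes tested and in 56.7% of those with a mean of at least 10 CPM, the level that all 38 reached. The 67 transcripts together took up 12060 to 12600 CPM in the vehicle cultures and 13100 to 13430 CPM in the TGF-β1 cultures.

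**Figure D1:**
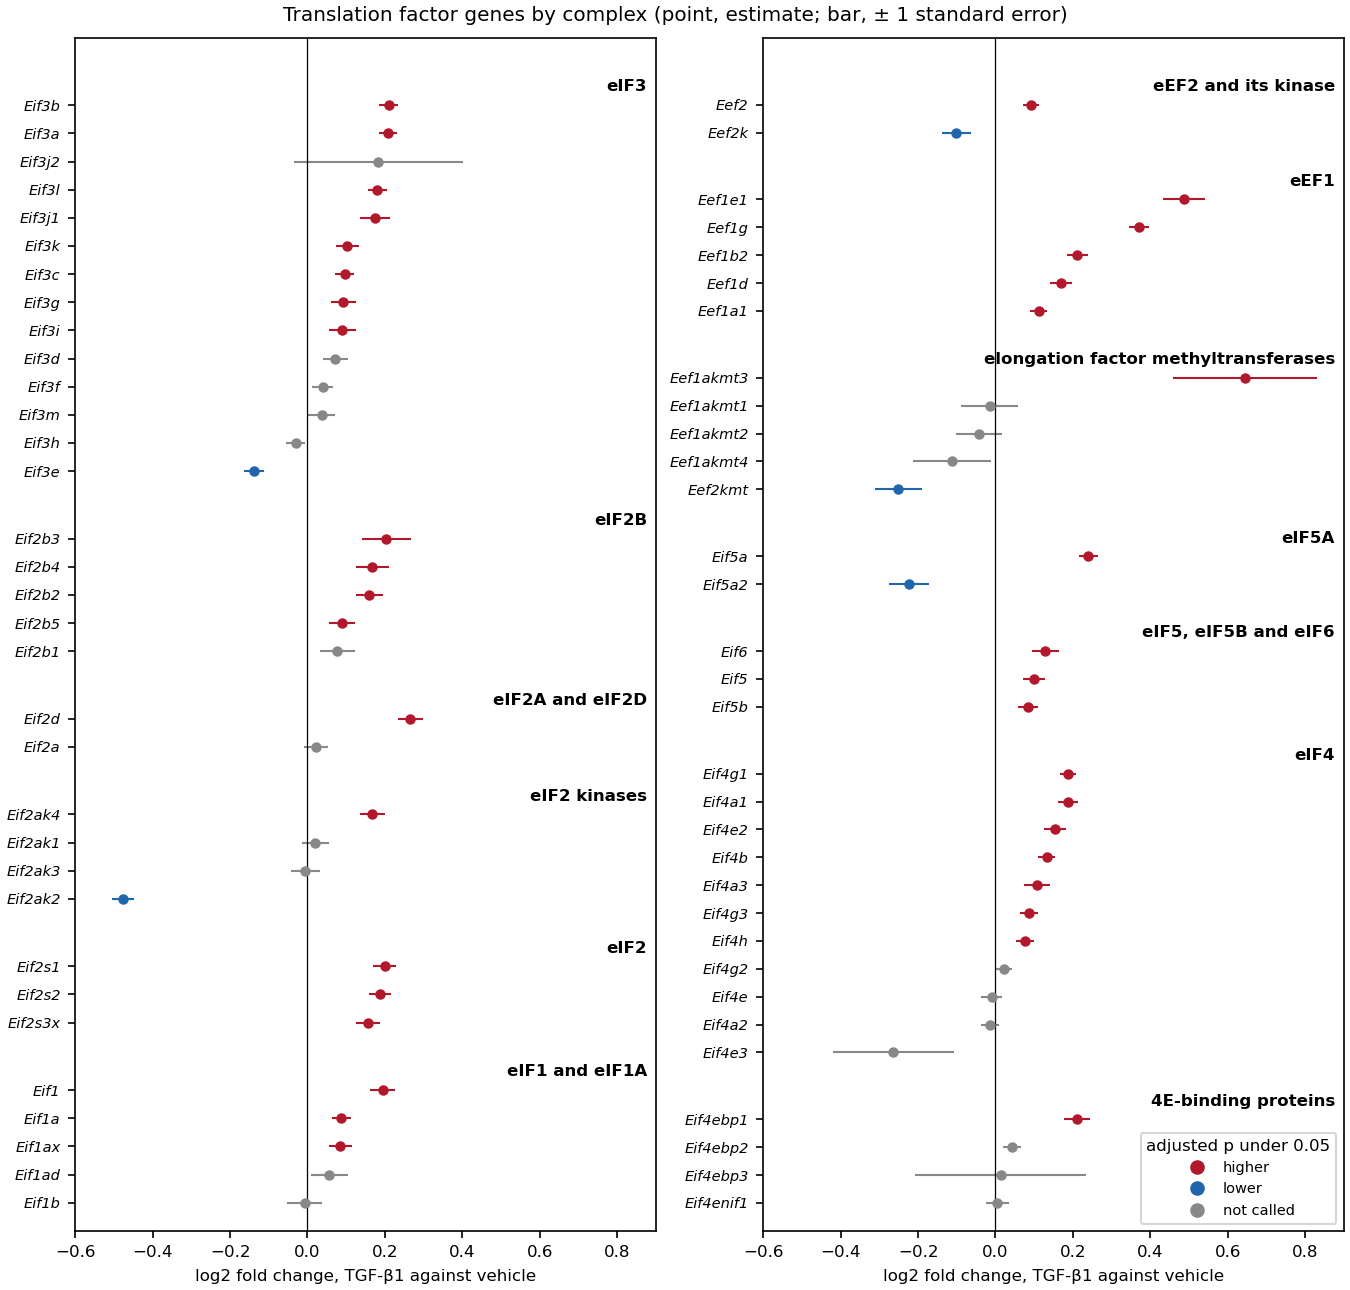
Log2 fold change of each of the 65 tested members, TGF-β1 against vehicle (x axis), with genes grouped by complex (y axis). Points are edgeR estimates, bars ± 1 standard error (n = 4 cultures per group) and colours mark the 39 genes called higher, the 5 called lower and the 21 not called.

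The vehicle cultures themselves fell into pairs for many of these genes. In 41 of the 65 members (63.1%) vehicle cultures 3 and 4 both lay above vehicle cultures 1 and 2, and in 4 members (6.15%) the order was the opposite. Over all genes tested these shares were 21.0% and 21.1%, and over genes with a mean of at least 10 CPM 31.7% and 16.1%. This split was noticed in the values, no label accounts for it, and whether it follows the isolates was not tested. Compared with vehicle cultures 3 and 4 alone, 27 members were higher, 6 were lower and the median log2 fold change was 0.059. Over all 23480 genes tested in that comparison, 3904 were higher and 3988 lower. Compared with vehicle cultures 1 and 2 alone, 42 members were higher, 4 were lower and the median was 0.14. Over all 23557 genes tested there, 4760 were higher and 4061 lower. With fewer cultures these comparisons have less power, and over all genes 9304 calls with all cultures became 7892 and 8821. Of the 44 member calls made with all cultures, 32 were made in the same direction against vehicle cultures 3 and 4 alone.

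The small factors eIF1 and eIF1A hold the ribosome in the open state that scans for the start codon. Of the 5 genes that carry their names, 3 were higher and 2 were not called. *Eif1*, whose product guards start codon choice, was at 111, 120.1, 128 and 125 CPM in the vehicle and 134, 143, 136 and 141 CPM in the TGF-β1 cultures. All 4 treated cultures lay above the highest vehicle culture, and the log2 fold change was 0.19 ± 0.033 (SE, n = 4 per group, edgeR adjusted p = 1.50e-05). The eIF1A gene *Eif1a* was at 167, 172, 178 and 173 CPM with vehicle and 180.1, 189, 181 and 184 CPM with TGF-β1, a change of 0.088 ± 0.025 on the log2 scale (edgeR adjusted p = 0.00388). Its X-linked paralogue *Eif1ax* was at 75.4, 73.4, 76.6 and 76.6 CPM and 78.9, 81.8, 78.1 and 81.4 CPM, a change of 0.085 ± 0.030 on the log2 scale (edgeR adjusted p = 0.0183). Neither pair of groups overlapped, but against vehicle cultures 3 and 4 alone *Eif1* was the 1 gene still called, and the *Eif1ax* call was also lost without vehicle culture 2 (adjusted p = 0.0569) or TGF-β1 culture 6 (adjusted p = 0.0748) and when every gene with 1 or more counts was tested (adjusted p = 0.0583). *Eif1b*, a paralogue of *Eif1*, and *Eif1ad* had log2 fold changes of −0.007 ± 0.045 and 0.057 ± 0.048 with overlapping groups. Part of *Eif1*, 19.2% of its 50-base words, also occurs in other genes, so that some of its reads may be shared. The 5 genes that each share over 5% of its words summed to 68.95 CPM with vehicle and 69.3 CPM with TGF-β1. *Eif1* itself averaged 121 and 138.5 CPM.

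All 3 subunits of eIF2 were higher. *Eif2s1* encodes the α subunit, which stress kinases phosphorylate, and stood at 105, 102, 112 and 112 CPM in the vehicle cultures against 121, 128, 121 and 126 CPM in the TGF-β1 cultures. *Eif2s2*, for the β subunit, was at 116, 108, 119 and 114 CPM against 126, 136, 128 and 129.7 CPM. *Eif2s3x*, for the γ subunit that binds GTP and tRNA, was at 98.7, 94.1, 108 and 103 CPM against 112, 115, 110.1 and 113 CPM. In each of the 3 genes every treated culture was above every vehicle culture. Their log2 fold changes were 0.20 ± 0.030, 0.19 ± 0.029 and 0.16 ± 0.031 (SE, n = 4 per group), with edgeR adjusted p of 3.44e-07, 7.58e-07 and 6.76e-05, and all 3 remained called against either pair of vehicle cultures. *Eif2s3x* shares 34.6% of its 50-base words with 2 other genes, of which the main one was at 1.06 CPM in both groups.

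eIF2B, the 5-subunit exchange factor of eIF2, had 4 subunit genes higher and 1 not called. *Eif2b3* (γ) was at 12.6, 14.15, 13.6 and 12.3 CPM with vehicle and 13.55, 16.2, 15.5 and 15.45 CPM with TGF-β1, with TGF-β1 culture 5 inside the vehicle range. *Eif2b4* (δ) was at 27.6, 28.3, 27.6 and 26.0 CPM and 31.3, 31.5, 31.0 and 29.4 CPM. *Eif2b2* (β) was at 47.8, 46.0, 49.1 and 49.6 CPM and 53.3, 56.1, 52.7 and 52.9 CPM, and in these 2 genes the groups did not overlap. The log2 fold changes were 0.20 ± 0.063 for *Eif2b3*, 0.17 ± 0.043 for *Eif2b4* and 0.16 ± 0.035 for *Eif2b2* (edgeR adjusted p = 0.00791, 0.00143 and 2.08e-04). The catalytic subunit gene *Eif2b5* was at 61.3, 64.3, 65.8 and 67.0 CPM and 66.1, 70.8, 71.0 and 66.8 CPM. Its groups overlapped, and its log2 fold change of 0.089 ± 0.033 (edgeR adjusted p = 0.0290) was not called with DESeq2 (adjusted p = 0.0528), nor when every gene with 1 or more counts was tested (adjusted p = 0.0551), nor without vehicle culture 1, TGF-β1 culture 6 or TGF-β1 culture 7 (adjusted p of 0.118 to 0.147), nor against vehicle cultures 3 and 4 alone (adjusted p = 0.43). *Eif2b1* (α) was not called, at 0.077 ± 0.045.

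Of the 4 kinases that phosphorylate eIF2α, 1 was lower, 1 was higher and 2 were not called. *Eif2ak2* encodes PKR, the kinase activated by double-stranded RNA and induced by interferon, and lies at chr17:78852564-78882573 (GRCm38, minus strand). It was at 354, 331, 351 and 331 CPM in the vehicle and 242, 261, 243.5 and 236 CPM in the TGF-β1 cultures, so that every treated culture was far below every vehicle culture. *Eif2ak2* fell by 28.1%, a log2 fold change of −0.48 ± 0.028 (SE, n = 4 per group, edgeR adjusted p = 4.06e-16), the largest decrease of any member. *Eif2ak4*, for the amino acid sensor GCN2, was at 50.6, 51.5, 51.6 and 53.9 CPM and 59.9, 56.9, 57.7 and 58.7 CPM, a rise of 0.17 ± 0.033 on the log2 scale with groups apart (edgeR adjusted p = 4.76e-05). *Eif2ak3*, for the endoplasmic reticulum kinase PERK, was at 43.7, 43.6, 40.4 and 40.4 CPM and 42.7, 42.75, 40.9 and 41.1 CPM, with the treated cultures inside the vehicle range and a log2 fold change of −0.005 ± 0.038. *Eif2ak1*, for the heme-regulated kinase HRI, was not called at 0.020 ± 0.035. Summed over the 4 kinases, the level ran from 472 to 499 CPM with vehicle and from 383 to 412 CPM with TGF-β1.

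The RefSeq promoter windows (GRCm38.p6, 250 bases before to 50 after each start) were searched on both strands for the core of an interferon response element, the letters GAAA in 2 copies with 2 bases between, because *Eif2ak2* is known as an interferon-induced gene. The stretch of the *Eif2ak2* window that holds the match, chr17:78882544-78882632 on the minus strand, is printed with the match in capitals.
Eif2ak2: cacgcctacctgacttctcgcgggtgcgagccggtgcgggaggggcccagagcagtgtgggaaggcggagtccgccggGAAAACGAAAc
These letters were found in 4 of the 51 members that have a window (7.84%), namely *Eif2ak2*, *Eif2s1*, *Eif2s3x* and *Eif3a*, and in 3.99% of the 27025 genes with a window. Of these 4 members 1 was lower and 3 were higher.

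*Eif2a* and *Eif2d* encode factors outside the eIF2 complex that can bring initiator tRNA to the ribosome. *Eif2d* was at 53.2, 55.8, 53.7 and 56.0 CPM with vehicle and 65.2, 66.7, 67.3 and 63.7 CPM with TGF-β1, 4 of 4 treated cultures above the vehicle range. It rose by 20.2% (log2 fold change 0.27 ± 0.032, edgeR adjusted p = 3.24e-09), while *Eif2a* had overlapping groups and a log2 fold change of 0.022 ± 0.031.

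**Figure D2:**
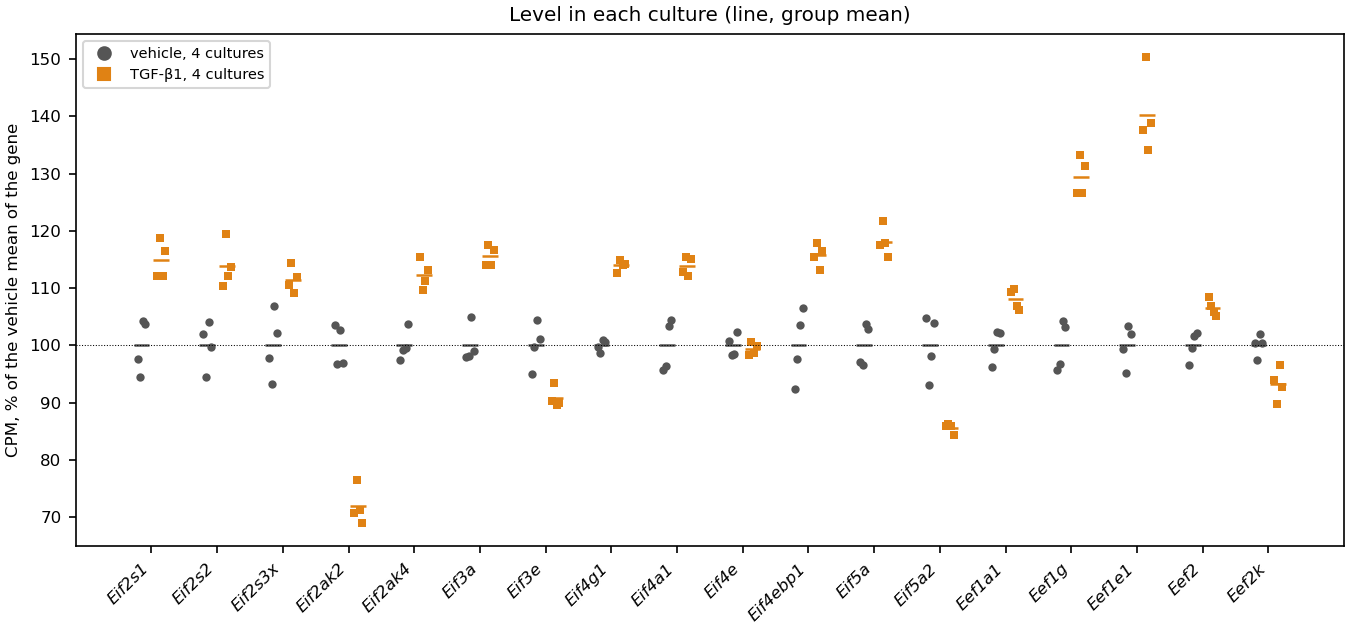
Level in each culture of 18 members, as a percentage of the gene's vehicle mean (y axis), with 4 vehicle cultures (grey circles), 4 TGF-β1 cultures (orange squares) and lines at the group means. The treated cultures of *Eif2ak2*, *Eif5a2*, *Eif3e* and *Eef2k* lie below the vehicle cultures, those of *Eif4e* among them and those of the other 13 genes above them.

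eIF3, the largest initiation factor, binds the small ribosomal subunit and keeps the large one away. Of its 14 genes, 8 were higher, 1 was lower and 5 were not called, with a median log2 fold change of 0.095. The scaffold subunit gene *Eif3b* was at 180.2, 186, 191 and 185 CPM with vehicle and 209.8, 220.4, 215 and 214 CPM with TGF-β1. *Eif3a*, for the largest subunit, was at 391, 391, 418.5 and 395 CPM and 455, 469, 455 and 465 CPM, and in both genes the treated cultures were all above the vehicle cultures. *Eif3l*, a more peripheral subunit, was at 183.5, 181, 182 and 187 CPM and 205, 209.9, 204 and 213 CPM, again without overlap. Log2 fold changes were 0.21 ± 0.025 for *Eif3b*, 0.21 ± 0.024 for *Eif3a* and 0.18 ± 0.024 for *Eif3l* (SE, n = 4 per group, edgeR adjusted p = 1.28e-09, 4.33e-10 and 3.02e-08).

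Among the eIF3 genes *Eif3e* moved the other way. It was at 209, 219.6, 230.0 and 223 CPM in the vehicle and 199, 206, 198 and 198 CPM in the TGF-β1 cultures, each treated culture below each vehicle culture. The log2 fold change of *Eif3e* was −0.14 ± 0.026 (edgeR adjusted p = 1.87e-05). Smaller rises of 0.090 to 0.17 on the log2 scale were called for *Eif3c*, *Eif3g*, *Eif3i*, *Eif3j1* and *Eif3k*. *Eif3d*, *Eif3f*, *Eif3h*, *Eif3j2* and *Eif3m* were not called, with log2 fold changes of 0.072 ± 0.032, 0.039 ± 0.028, −0.030 ± 0.025, 0.18 ± 0.218 and 0.037 ± 0.035. Against vehicle cultures 3 and 4 alone, 4 of the 14 were higher and 2 lower, *Eif3h* joining *Eif3e* (edgeR adjusted p = 0.0277), and the calls of *Eif3c*, *Eif3g*, *Eif3i* and *Eif3k* were lost. The *Eif3i* call was also lost with DESeq2 (adjusted p = 0.0641), with library totals as the scaling (adjusted p = 0.0583), when every gene with 1 or more counts was tested (adjusted p = 0.0622) and when vehicle culture 1 or 4 or TGF-β1 culture 5 or 6 was left out, and that of *Eif3g* without vehicle culture 2 or TGF-β1 culture 6, whereas *Eif3d* was called without vehicle culture 3 (adjusted p = 0.0208) or 4 (adjusted p = 0.0303). *Eif3j1* and *Eif3j2* are near copies (50.9% and 91.9% of their 50-base words shared), and 43.3% of the exon sequence of *Eif3d* overlaps *Gm17638*, so that reads of these genes may be split.

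Around the mRNA cap, eIF4G joins the cap-binding protein eIF4E to the helicase eIF4A. Of the 12 eIF4 genes, 11 were tested, 7 were higher and none was lower, and 4 were not called (DESeq2 also called 7 higher and none lower). *Eif4g1*, for the main scaffold, was at 888, 879.7, 899.6 and 897 CPM with vehicle and 1004, 1024, 1016 and 1017 CPM with TGF-β1. The helicase gene *Eif4a1* was at 269, 271, 291 and 293.5 CPM and 317, 325, 315 and 324 CPM. Both genes rose in 4 of 4 treated cultures past the vehicle range, by 0.19 ± 0.021 and 0.19 ± 0.026 on the log2 scale (SE, n = 4 per group, edgeR adjusted p = 1.69e-10 and 5.73e-08). The cap-binding protein gene *Eif4e* did not move with them: it was at 100.2, 97.85, 98.0 and 102 CPM and 97.8, 100.1, 98.05 and 99.3 CPM, with overlapping groups and a log2 fold change of −0.010 ± 0.027 (edgeR adjusted p = 0.819). *Eif4e2*, for a cap-binding homologue that does not bind eIF4G, was at 97.7, 92.9, 99.8 and 100.5 CPM and 108, 108.5, 109 and 109 CPM. It rose by 0.15 ± 0.028 on the log2 scale without overlap (edgeR adjusted p = 1.15e-05).

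Among the remaining eIF4 genes, the helicase cofactor genes *Eif4b* and *Eif4h* rose by 0.13 ± 0.022 and 0.076 ± 0.024, the scaffold paralogue *Eif4g3* by 0.086 ± 0.023 and *Eif4a3*, for the helicase of the exon junction complex, by 0.11 ± 0.033. The calls of *Eif4h* and *Eif4a3* were lost against vehicle cultures 3 and 4 alone (edgeR adjusted p = 0.188 and 0.392). *Eif4a2*, *Eif4g2* and *Eif4e3* were not called, at −0.014 ± 0.023, 0.023 ± 0.021 and −0.26 ± 0.156. *Eif4e1b*, an eIF4E homologue best known from oocytes, had 0 counts in the vehicle cultures and at most 2 in any TGF-β1 culture, and was not tested.

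The 4E-binding proteins hold eIF4E away from eIF4G until mTORC1 phosphorylates them. *Eif4ebp1* was at 65.5, 69.3, 73.45 and 75.6 CPM in the vehicle and 81.9, 83.6, 80.3 and 82.7 CPM in the TGF-β1 cultures, with no overlap and the treated cultures closer to each other than the vehicle cultures. Its log2 fold change was 0.21 ± 0.034 (SE, n = 4 per group, edgeR adjusted p = 1.74e-06). The other 3 genes of this group, *Eif4ebp2*, *Eif4ebp3* and *Eif4enif1*, whose product carries eIF4E into the nucleus, were not called, at 0.043 ± 0.024, 0.014 ± 0.221 and 0.005 ± 0.030. *Eif4ebp3* was below 1.1 CPM in every culture and overlaps another transcript over 67.3% of its exon sequence.

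eIF5 triggers GTP hydrolysis by eIF2, eIF5B joins the ribosomal subunits and eIF6 keeps free large subunits apart. All 3 genes were called higher with all cultures and none against vehicle cultures 3 and 4 alone (edgeR adjusted p of 0.0518 to 0.271), whereas all 3 were higher against vehicle cultures 1 and 2 alone. *Eif6* was at 54.2, 57.3, 57.85 and 59.9 CPM with vehicle and 62.8, 63.5, 64.05 and 60.6 CPM with TGF-β1, without overlap. *Eif5* was at 243, 256, 271 and 267 CPM and 286, 285, 265 and 276 CPM, and *Eif5b* at 148, 144, 147.5 and 147.5 CPM and 149, 157, 159 and 156.5 CPM. The groups overlapped for *Eif5* alone, where TGF-β1 culture 7 lay below vehicle cultures 3 and 4. Log2 fold changes were 0.13 ± 0.034 for *Eif6*, 0.10 ± 0.029 for *Eif5* and 0.085 ± 0.026 for *Eif5b* (edgeR adjusted p = 0.00152, 0.00579 and 0.00652).

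The 2 genes for eIF5A, the hypusine-bearing factor that relieves stalled ribosomes, changed in opposite directions. *Eif5a* was at 247, 246, 264 and 262 CPM in the vehicle and 299, 309.9, 300.0 and 294 CPM in the TGF-β1 cultures. *Eif5a2* was at 21.3, 18.95, 19.97 and 21.1 CPM and 17.5, 17.55, 17.5 and 17.2 CPM, and its treated cultures lay within 0.4 CPM of one another, below all vehicle cultures. *Eif5a* rose by 18.1% (log2 fold change 0.24 ± 0.025, edgeR adjusted p = 6.90e-11) and *Eif5a2* fell by 14.4% (−0.22 ± 0.052, edgeR adjusted p = 4.47e-04).

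The group of genes named eEF1, which takes in *Eef1e1* by its symbol, had the highest median log2 fold change of the groups, 0.21. All 5 tested genes were higher with all cultures and against either pair of vehicle cultures. *Eef1e1*, at chr13:38644207-38659058 on the minus strand, encodes a small eEF1-related protein that sits in the multisynthetase complex, and was at 15.1, 14.5, 15.8 and 15.55 CPM with vehicle and 21.0, 22.9, 20.4 and 21.15 CPM with TGF-β1. *Eef1g*, at chr19:8967041-8978479 on the plus strand, encodes the structural γ subunit of eEF1B and was at 293, 296, 319 and 316 CPM and 387.5, 408, 388 and 402 CPM. Both sets of treated cultures were well clear of the vehicle cultures, with rises of 40.15% for *Eef1e1* (log2 fold change 0.49 ± 0.054, edgeR adjusted p = 2.43e-10) and 29.4% for *Eef1g* (0.37 ± 0.026, edgeR adjusted p = 2.75e-15). *Eef1b2*, for the exchange subunit, was at 159, 161, 169 and 169 CPM and 188, 197, 188 and 189 CPM. It rose by 0.21 ± 0.026 on the log2 scale (edgeR adjusted p = 3.48e-09), and *Eef1d*, for a further exchange subunit, by 0.17 ± 0.028, each without overlap.

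*Eef1a1*, for the tRNA carrier itself, was the most abundant member per length. It was at 1649, 1702, 1754 and 1751 CPM in the vehicle and 1875, 1882, 1832 and 1819 CPM in the TGF-β1 cultures. The groups did not overlap, and the log2 fold change was 0.11 ± 0.022 (SE, n = 4 per group, edgeR adjusted p = 3.26e-05). Of its 50-base words 40.4% also occur in 21 other genes, and the 6 that each share over 5% of them summed to 67.4 CPM with vehicle and 52.6 CPM with TGF-β1. *Eef1g* shares 44.2% of its words with 5 other genes, of which the 3 sharing over 5% summed to 4.07 and 5.16 CPM. *Eef1a2*, the isoform of neurons and muscle, had at most 6 counts in any culture and was not tested.

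eEF2 and the kinase that inhibits it went in opposite directions. *Eef2* was at 1553, 1600, 1633 and 1643 CPM with vehicle and 1742, 1717, 1700 and 1691 CPM with TGF-β1. Its treated cultures all lay above the vehicle range (log2 fold change 0.092 ± 0.021, edgeR adjusted p = 3.85e-04). *Eef2k* was at 40.9, 39.7, 41.6 and 40.9 CPM and 38.3, 36.6, 39.4 and 37.8 CPM, all treated cultures below the vehicle range but TGF-β1 culture 7 by little (−0.10 ± 0.038, edgeR adjusted p = 0.0277). The *Eef2k* call was not made with DESeq2 (adjusted p = 0.0519), nor without vehicle culture 1, 3 or 4 or TGF-β1 culture 6 or 8 (adjusted p of 0.0524 to 0.106), nor against vehicle cultures 1 and 2 alone (adjusted p = 0.219).

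The lysine methyltransferases of the elongation factors were at low levels, between 0.884 and 19.2 CPM in every culture. *Eef1akmt3* was at 1.345, 1.56, 0.884 and 0.975 CPM in the vehicle and 1.70, 2.33, 1.55 and 1.85 CPM in the TGF-β1 cultures, with TGF-β1 culture 7 just under vehicle culture 2. It rose by 56.2% (log2 fold change 0.64 ± 0.186, edgeR adjusted p = 0.00430) on 42 to 107 counts per culture, and was not called against vehicle cultures 1 and 2 alone (0.37, adjusted p = 0.17). *Eef2kmt*, for the methyltransferase of eEF2, was at 14.6, 14.7, 14.9 and 14.7 CPM and 12.55, 11.8, 13.05 and 12.1 CPM. It fell by 16.0% with no overlap (−0.25 ± 0.060, edgeR adjusted p = 5.57e-04), and 23.0% of its exon sequence overlaps *Alg1* and *Gm15983*. *Eef1akmt1*, *Eef1akmt2* and *Eef1akmt4* were not called, at −0.015 ± 0.073, −0.042 ± 0.059 and −0.11 ± 0.101.

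Divided by exon length, levels in the vehicle cultures ran from 687.5 CPM per kb for *Eef1a1* and 483.5 CPM per kb for *Eef2* down to under 1.2 CPM per kb for *Eif4e3*, *Eif4ebp3*, *Eef1akmt3* and *Eif3j2*. Next to the leading pair came *Eif3h* at 149, *Eif4b* at 122, *Eif4g1* at 122 and *Eef1g* at 118 CPM per kb. The middle pair of these, *Eif4b* and *Eif4g1*, were level. With TGF-β1 the same 4 genes were at 146, 134, 139 and 152 CPM per kb, so that *Eef1g* moved from the last to the first of the 4. The eIF2 subunits were at 21.8 (α), 16.9 (β) and 26.5 (γ) CPM per kb with vehicle. The exon length merges all annotated exons of a gene, whichever transcripts are expressed, so that levels per kb also depend on the annotation.

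**Figure D3:**
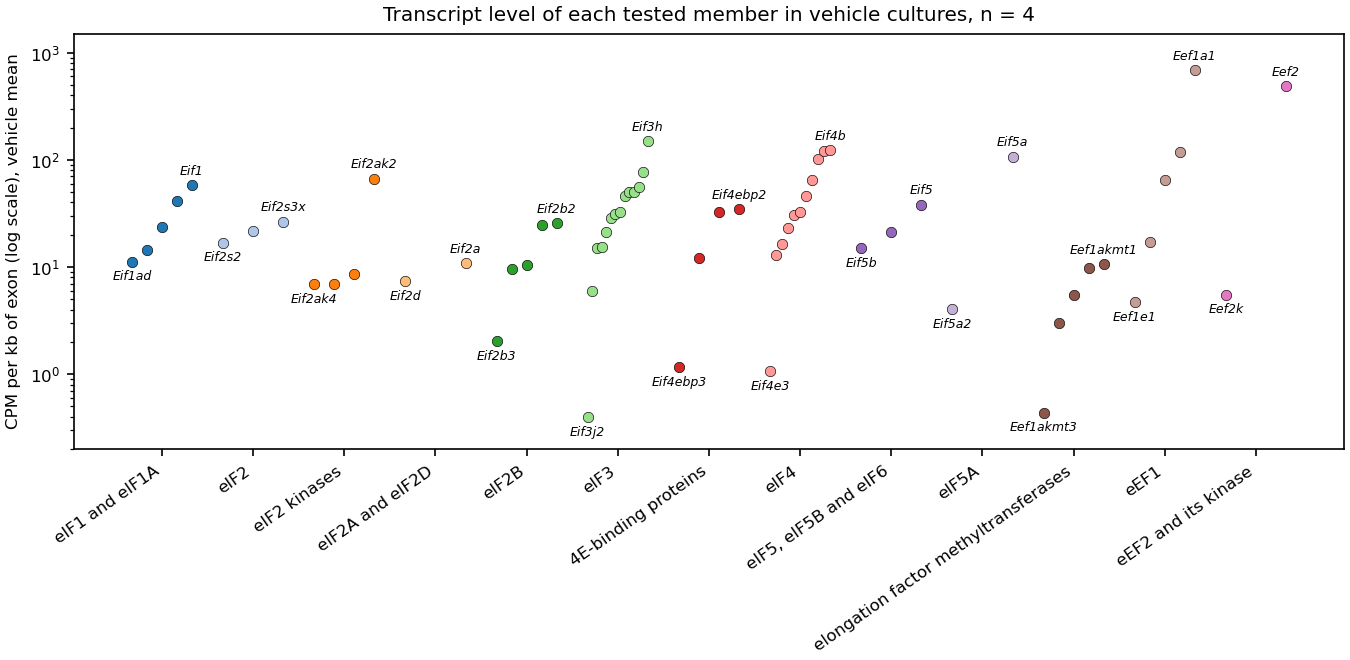
Vehicle mean of each tested member in CPM per kb of exon (y axis, log scale; n = 4 cultures), with members grouped by complex (x axis). *Eef1a1* and *Eef2* stand above all others, and *Eif3j2* and *Eef1akmt3* are the lowest.

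Ratios of 2 counts within a culture do not depend on how libraries are scaled. Of the 8 ratios, chosen with earlier results of these data known, 7 could be computed, because *Eef1a2* had 0 counts in 2 cultures. With 4 against 4 cultures the exact two-sided permutation test cannot give a p below 0.0286, or 0.0333 after adjustment over 7 ratios where 6 reach it. *Eif4ebp1* stood to *Eif4e* as 0.654, 0.709, 0.749 and 0.743 in the vehicle and 0.838, 0.836, 0.819 and 0.833 in the TGF-β1 cultures. The ratio of *Eif5a2* to *Eif5a* was 0.0863, 0.0772, 0.0757 and 0.08075 with vehicle and 0.0585, 0.0566, 0.0582 and 0.0585 with TGF-β1. For *Eif4a2* to *Eif4a1*, the paired helicases, it was 0.907, 0.9115, 0.860 and 0.852 and 0.7845, 0.758, 0.762 and 0.762. In these 3 ratios the groups did not overlap, and the log2 ratio differed by 0.22, −0.46 and −0.20 (exact permutation p = 0.0286 each, adjusted p = 0.0333).

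The further ratios of *Eif4e2* to *Eif4e*, *Eif4g3* to *Eif4g1* and *Eif1b* to *Eif1* differed by 0.16, −0.10 and −0.20 on the log2 scale, also without overlap (exact permutation p = 0.0286 each, adjusted p = 0.0333). *Eif4ebp2* to *Eif4e* differed by 0.052 with overlapping groups (exact permutation p = 0.0571). In the pairs *Eif1*, *Eif4a*, *Eif4g* and *Eif5a* the gene with the higher level per length gained on its paralogue, whereas *Eif4e2*, at the lower level per length, gained on *Eif4e*. Before division by length, *Eif4e2* and *Eif4e* had vehicle means of 97.7 and 99.5 CPM.

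**Figure D4:**
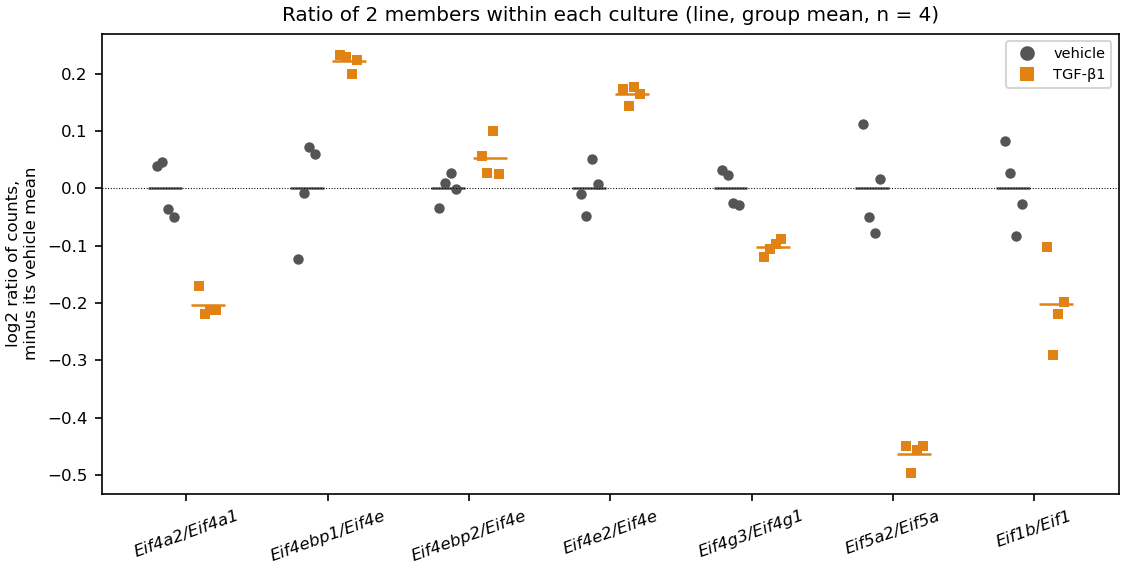
Log2 ratio of 2 members' counts in each culture minus its vehicle mean (y axis) for the 7 ratios (x axis), with 4 vehicle cultures (grey circles), 4 TGF-β1 cultures (orange squares) and lines at the group means. The groups are apart in 6 ratios and overlap for *Eif4ebp2/Eif4e*.

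The E-box CACGTG, the letters bound by MYC and related factors that are known to act on translation genes, was searched in the same RefSeq windows, and it reads alike on both strands. It was found in 13 of the 51 members with a window (25.5%), against 8.09% of all 27025 genes and 12.3% of the 7834 protein-coding genes with a mean of at least 10 CPM. Of these 13 members 7 were higher, 2 lower and 4 not called, and of the 38 without it 24 were higher, 2 lower, 11 not called and 1 not tested. Stretches of 60 bases are printed for 9 of the holders, with the E-box in capitals, to show that genes called higher (*Eif4g1*, *Eif4a1*, *Eif4h*, *Eef2* and *Eif5a*), lower (*Eif5a2* and *Eef2k*) and not called (*Eif4e* and *Eif3f*) all hold it.
Eif4g1: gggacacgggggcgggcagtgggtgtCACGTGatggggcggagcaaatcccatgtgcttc
Eif4a1: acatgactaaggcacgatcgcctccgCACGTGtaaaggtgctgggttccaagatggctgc
Eif4h: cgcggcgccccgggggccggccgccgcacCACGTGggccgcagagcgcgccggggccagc
Eef2: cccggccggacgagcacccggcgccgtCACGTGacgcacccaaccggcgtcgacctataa
Eif5a: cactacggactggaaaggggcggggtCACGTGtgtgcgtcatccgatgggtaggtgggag
Eif5a2: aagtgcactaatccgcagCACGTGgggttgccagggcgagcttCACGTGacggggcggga
Eef2k: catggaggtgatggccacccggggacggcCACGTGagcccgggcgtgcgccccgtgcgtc
Eif4e: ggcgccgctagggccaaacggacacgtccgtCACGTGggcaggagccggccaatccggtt
Eif3f: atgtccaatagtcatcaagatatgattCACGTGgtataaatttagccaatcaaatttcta
In that order the stretches lie at chr16:20672647-20672706 (plus strand), chr11:69672579-69672638 (minus), chr5:134639475-134639534 (minus), chr10:81176561-81176620 (plus), chr11:69921427-69921486 (minus), chr3:28781117-28781176 (plus), chr7:120842771-120842830 (plus), chr3:138527173-138527232 (plus) and chr7:108934320-108934379 (plus) of GRCm38.p6. The *Eif5a2* stretch holds the letters at 2 places.

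Further motifs were searched on both strands in the same windows. CCGGAAGT, an ETS site, was in 9 members (17.6%) against 4.31% of all genes and 10.3% of the abundant protein-coding genes. The ATF4 half-site TGATGNAA was in 2 members (3.92%), *Eef2k* and *Eif2s3x*, against 4.51% and 2.59%. These matches are descriptions of the windows, and no binding was measured.

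Of 77 other translation genes in 7 lists, 25 were higher, 6 were lower and 46 were not called, with a median log2 fold change of 0.052. The called share of 40.3% was close to the 41.3% of all genes tested and below the 60.9% of genes with a mean of at least 10 CPM, and the shares in the lists ran from 0% to 53.9%. By direction, the 25 higher and 6 lower of 77 stand beside 20.9% higher and 20.3% lower of all genes tested. At a mean of at least 10 CPM these shares were 33.8% and 27.1%. Among the 6 termination and recycling genes, which release the peptide and split the ribosome, 3 were higher and none lower (DESeq2 gave the same counts): *Abce1* rose from 137 ± 4.02 to 160.4 ± 4.49 CPM (SD, n = 4), *Etf1* from 199 ± 4.95 to 222 ± 7.025 CPM and *Gspt1* from 158 ± 4.915 to 175 ± 4.47 CPM. The 20 initiation helpers had 8 higher and 2 lower. *Pdcd4*, whose product blocks eIF4A, fell from 73.7 ± 2.09 to 44.6 ± 1.78 CPM (log2 fold change −0.72 ± 0.034, edgeR adjusted p = 4.32e-22). The poly(A)-binding protein gene *Pabpc4* rose from 86.65 ± 5.05 to 119 ± 4.08 CPM (0.46 ± 0.033) and *Bzw2*, for an eIF5 mimic, from 28.8 ± 0.750 to 36.85 ± 1.10 CPM (0.35 ± 0.041).

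In the mTORC1 list of 13 genes, which also takes in *Mknk1* and *Mknk2*, for kinases of eIF4E, 4 were higher and 3 lower. DESeq2 called 4 higher and 2 lower, and against vehicle cultures 3 and 4 alone 2 were higher and 2 lower. *Rps6kb2* was called lower with overlapping groups (log2 fold change −0.11 ± 0.040, edgeR adjusted p = 0.0284). *Mknk1*, for a kinase that phosphorylates eIF4E, fell from 49.8 ± 0.561 to 30.9 ± 0.967 CPM (log2 fold change −0.69 ± 0.037, edgeR adjusted p = 6.85e-20). *Deptor*, for an inhibitor of mTOR, fell from 64.1 ± 1.94 to 41.9 ± 2.83 CPM (−0.61 ± 0.038, edgeR adjusted p = 1.99e-17), and *Rheb*, for its activator, rose from 89.2 ± 2.405 to 104 ± 3.71 CPM (0.22 ± 0.029). *Tsc1* and *Akt1s1*, also for inhibitors in this arm, rose by 0.079 ± 0.028 and 0.074 ± 0.027 without overlap (edgeR adjusted p = 0.0198 and 0.0246). *Rps6kb1* rose by 0.14 ± 0.029. *Mtor*, *Rptor*, *Mlst8* and *Tsc2* were among the 6 genes not called. Of the 9 genes listed for the integrated stress response, the programme that follows eIF2α phosphorylation, 4 were higher and 5 not called. The list holds regulators of this phosphorylation as well as genes of the programme. *Ppp1r15a* and *Ppp1r15b*, for the subunits that direct a phosphatase to eIF2α, rose from 39.75 ± 1.66 to 56.6 ± 1.53 CPM (0.51 ± 0.036) and from 132 ± 4.38 to 145 ± 4.57 CPM (0.14 ± 0.028), and *Trib3* rose by 0.38 ± 0.066. The transcription factor genes *Atf4*, *Ddit3* and *Atf3* of this list, named here after their values were seen, were not called. Their log2 fold changes were 0.001 ± 0.025, −0.030 ± 0.042 and −0.19 ± 0.094, the last with an edgeR adjusted p of 0.106. Against vehicle cultures 3 and 4 alone, 4 genes of this list were higher and 1 lower.

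None of the 9 genes that make diphthamide on eEF2 or hypusine on eIF5A was called by edgeR or by DESeq2, and 2 had an unadjusted edgeR p under 0.05. Of the 10 multisynthetase genes, which form the complex that holds *Eef1e1*'s product, 3 were higher and none lower (DESeq2 gave the same counts), with *Rars*, *Qars* and *Eprs* at 0.13 ± 0.031, 0.12 ± 0.027 and 0.10 ± 0.025. Of the 10 mitochondrial translation factor genes 3 were higher and 1 lower, with *Tsfm*, *Mrrf* and *Mtrf1l* at 0.18 ± 0.056, 0.17 ± 0.053 and −0.17 ± 0.054. The groups overlapped for *Rars* and *Mrrf*. Against vehicle cultures 3 and 4 alone, 2 multisynthetase genes were higher, and of the mitochondrial genes 1 was higher and 1 lower.

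**Figure D5:**
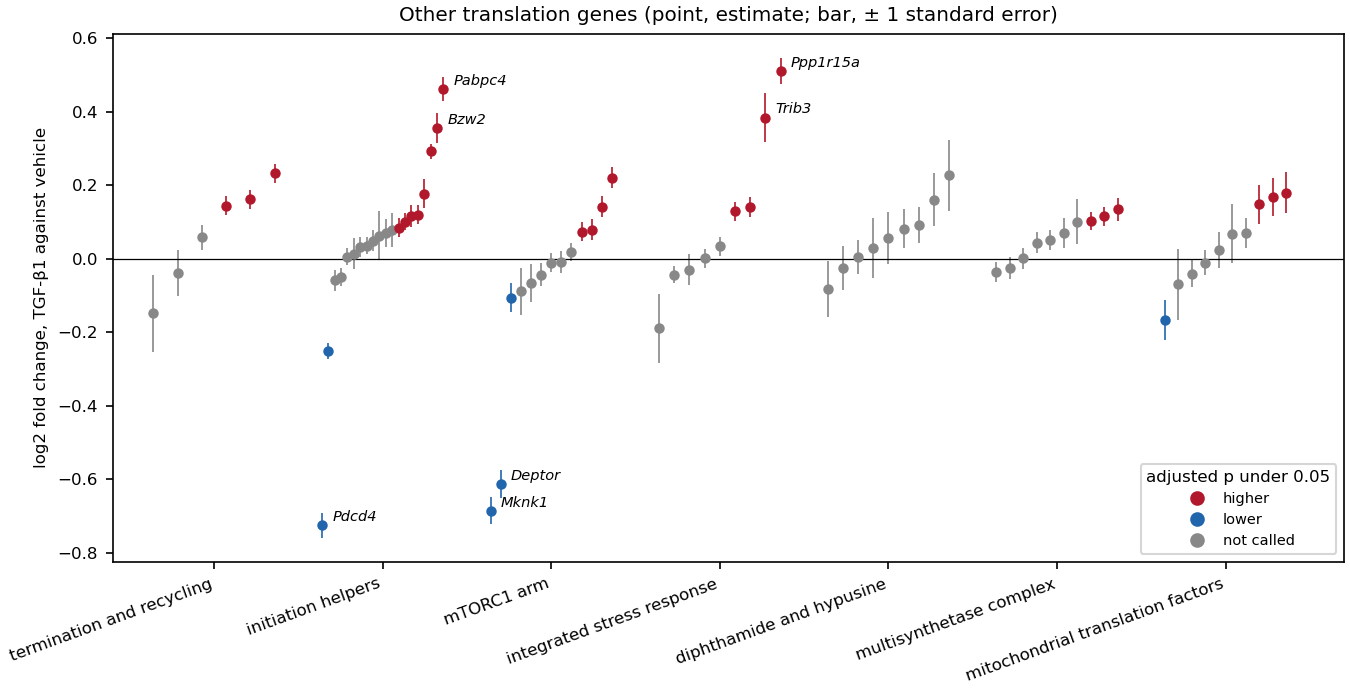
Log2 fold change, TGF-β1 against vehicle (y axis), of 77 other translation genes in 7 lists (x axis), as edgeR estimates with bars of ± 1 standard error (n = 4 cultures per group) and colours for the call. *Pdcd4*, *Mknk1* and *Deptor* lie lowest, and *Ppp1r15a* and *Pabpc4* highest.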

How the data were processed

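The deposited files hold raw read counts per gene, 1 file per culture. According to the methods and the submitters' processing notes, the authors aligned reads to mm10 with STAR 2.7.5c, removed duplicates with SAMtools 1.15 and made the counts with featureCounts 2.0.3. The annotation release, the strand setting and the treatment of reads shared between genes are not given in the sources used here. Low counts were even in 68.5% to 70.2% of cases, which bears on whether mates were counted singly, so halved counts were also tried.

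Identifiers were matched to GENCODE M21 (GRCm38) for names and exons, for 54495 of 54532. Counts were fitted in edgeR 4.0.16 under R 4.3.3 (filterByExpr, TMM, robust quasi-likelihood test, group as the 1 term), with Benjamini-Hochberg adjustment over 22544 genes and a threshold of 0.05. CPM are counts per 1000000 of the TMM-scaled total (factors 0.988 to 1.01). The standard error is the log2 fold change divided by the root of F. Ratios were compared with exact permutation tests in scipy 1.17.1. The fits were tested on simulated data. Alternatives were DESeq2 1.42.0, 3 other scalings, 2 other filters, halved counts, and leaving out each culture. After seeing the data, the TGF-β1 cultures were also compared with vehicle cultures 3 and 4 and with vehicle cultures 1 and 2 alone. Promoter windows came from a RefSeq table and were available here for 51 of the 67 genes.

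At this depth the tested members rested on 33 to 86428 counts per culture, and 3 counts equal 0.0631 to 0.0658 CPM. The edgeR p-values set a group difference against the spread between cultures, with dispersions moderated over all genes. The methods describe these cultures as 4 isolates given both treatments and the series text as 8 cultures, with no pairing in the labels.

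The genes, lists and ratios were chosen with earlier results of these data known. Values per culture are given, in each group, for up to 3 genes with the largest absolute log2 fold change among those called at a mean of at least 1 CPM, and for 17 core factors whatever their result. For the other lists up to 3 called genes with the largest change are named. Further genes of the mTORC1 and integrated stress response lists were added after their values were seen.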

Additional observations from a re-analysis of the deposited data

Results flagged for a closer look

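In 5 of 132 groups of 4 cultures (the libraries' totals and the 65 tested members, in each condition), 1 culture stood apart from the other 3 by a gap above Dixon's critical value, where chance at 1 in 20 gives 6.6. *Eif3a* was at 418.5 CPM in vehicle culture 3, with the nearest other vehicle culture at 395 CPM. *Eif3e* was at 206 CPM in TGF-β1 culture 6 against 199 CPM in the nearest. *Eif4enif1* was at 81.5 CPM in TGF-β1 culture 8 against 77.0 CPM. *Eif4g2* was at 1076 CPM in TGF-β1 culture 6 against 1052 CPM. *Eif5b* was at 143.6 CPM in vehicle culture 2, below the nearest at 147.5 CPM.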

How the results depend on the processing

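No paired analysis was possible because the labels number the vehicle cultures 1 to 4 and the TGF-β1 cultures 5 to 8, so that the groups share no number, although the methods name 4 isolates given both treatments. With all 8 cultures, the number of members called ranged over the other tools, scalings and filters from 36 to 39 higher and from 4 to 5 lower (39 and 5 as reported), and the members' median log2 fold change from 0.081 to 0.097. Leaving out 1 culture at a time gave 35 to 40 higher and 4 to 5 lower, fewest without TGF-β1 culture 6. Over all genes the number called ranged from 8559 to 9038 when 1 culture was left out, and was 8655 with DESeq2. The other translation genes gave 22 to 27 higher and 5 to 6 lower when 1 culture was left out, and 9 lower with library totals only. The 7 ratios had the same sign with 0.5 added to each count and without each culture in turn. With 1 culture left out, the exact permutation test cannot give a p below 0.0571. Scaling shifted the median of all genes by at most 0.011. The 2 comparisons with a pair of vehicle cultures were chosen after seeing the data, and the one with vehicle cultures 3 and 4 made 32 of the 44 member calls, against 39 to 44 in the other settings.

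Values that changed sign belonged to genes that were not called. With DESeq2 *Eif2ak3* was at 0.001. *Eif4enif1* was at −0.006 with library totals only, −0.001 with upper-quartile factors and −0.001 with at least 1 count in any culture. Leaving out 1 culture, *Eif1b* ranged from −0.028 to 0.005, *Eif2ak1* from −0.001 to 0.042, *Eif2ak3* from −0.025 to 0.019, *Eif4ebp3* from −0.067 to 0.089, *Eif4enif1* from −0.009 to 0.017, *Eif4e* from −0.018 to 0.001, *Eef1akmt1* from −0.055 to 0.042 and *Eef1akmt2* from −0.081 to 0.023. Against vehicle cultures 3 and 4 alone, *Eif1ad* was at −0.036, *Eif2ak3* at 0.044, *Eif2a* at −0.006, *Eif3m* at −0.028, *Eif4ebp3* at −0.022 and *Eif4enif1* at −0.021. Against vehicle cultures 1 and 2 alone, *Eif1b* was at 0.014, *Eif2ak1* at −0.002, *Eif3h* at 0.012, *Eif4a2* at 0.010, *Eif4e* at 0.007, *Eef1akmt1* at 0.111 and *Eef1akmt2* at 0.025. The cause of these sign changes was not tested. The depth limits *Eif4e1b* and *Eef1a2*, which could not be tested, and *Eif3j2*, *Eif4ebp3*, *Eif4e3* and *Eef1akmt3*, whose standard errors were 0.16 to 0.22 on the log2 scale.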
